A study of Caenorhabditis elegans with 20 samples.

Results

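This comparison set the H3K27me3 distribution in a C. elegans strain labelled duplication H3.3K27M beside that in a strain labelled duplication. It used 4 of the 20 libraries of the series, an immunoprecipitated (IP) library and its input for each strain, and the groups were taken from the strain and antibody in the labels. There was 1 library per group, so no difference below has a replicate check or a test, and spreads are spreads over bins of the genome. By its genotype, the duplication H3.3K27M strain carries mnDp10 [umnls31], a duplication noted as (X;I), together with his-72 (uge40[K27M]) on III and unc-3 (e151) on X. The duplication strain carries mnDp10 [umnls31] (X;I) and unc-3 (e151) without the his-72 change, so the duplication and the unc-3 allele are shared by both labels. The gene his-72 encodes the histone variant H3.3 and was edited at its own locus, so the other H3.3 genes are not named as changed in either genotype. Both were adults grown at 20 °C, from which total nuclei enriched for germ cells were taken. Native ChIP-seq was made without crosslinking, from chromatin digested with MNase, with an antibody described as recognizing H3K27me2/me3. The other strains set beside this pair were H3.3K27M, with his-72(uge40[K27M]) alone, against wild type, and H3-like K27M (uge68) against H3-like (uge67), in both of which HIS-72 carries the A87S, A88V, I89A and G90M changes that give it the chaperone motif of canonical H3.

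H3K27me3 is laid down by Polycomb repressive complex 2 (PRC2), in C. elegans the MES-2, MES-3 and MES-6 proteins, and marks chromatin in which genes are silent. In the worm germline the X chromosome is largely silenced and rich in this mark, while the autosomes carry blocks of H3K27me3 that alternate with blocks of H3K36me3, the mark of genes transcribed in germ cells. The K27M change replaces the lysine that PRC2 methylates with a methionine. It is known from human gliomas as an oncohistone, a mutant histone that inhibits PRC2 although most histone H3 in the cell stays unmutated.

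Values were read from tracks of IP minus input in 100 bp bins, in scaled reads, because all tracks had been scaled to the same number of reads. They therefore show how the mark was distributed within a strain, not how much of it the strain held. Whole reads could be recovered in 99.99% of the 1002719 bins of each track. The library labelled duplication H3.3K27M had a median of 35 IP and 42 input reads per 100 bp bin, and the duplication library had 85 and 45. A read of the IP was worth 1.54 scaled reads in the library labelled duplication H3.3K27M and 1.29 in duplication. From the recovered reads the log2 ratio of IP to input was taken in 10030 bins of 10 kb, with 1 scaled read added to each, and the change was the ratio in duplication H3.3K27M minus that in duplication. Neighbouring bins can share reads and are not independent.

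The input was read first, since it shows what DNA each strain held. A scan along X placed the largest step in the input of duplication over that of duplication H3.3K27M after position 12130000, which leaves 1213 bins of 10 kb in the left part of X and 559 in the right part. In the library labelled duplication H3.3K27M the median input was 41 reads per 100 bp on right X and 40 on left X, a ratio of 1.03. In duplication it was 60 and 41, a ratio of 1.46. The other strains had ratios between 0.980 and 0.991. Extra input over right X was thus seen in the duplication library and not in the library labelled duplication H3.3K27M, which goes against the duplication in its label. The name "labelled duplication H3.3K27M" is kept for that reason, and left and right X are given apart. The K27M change itself is a substitution that the tracks cannot show. In level along the genome, the library labelled duplication H3.3K27M resembled H3.3K27M (Pearson r 0.99 across 10030 bins of 10 kb) more than wild type (r 0.61), and duplication resembled wild type (r 0.96) more than H3.3K27M (r 0.72). By rank (Spearman) correlation the separation was smaller, with 0.98 and 0.77 for the first library and 0.82 and 0.74 for duplication. These correlations describe bins that share sequence content and mappability, and carry no test.

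The main question was how H3K27me3 was split between X and the autosomes. X had a mean input-subtracted signal of 121.5 scaled reads per 100 bp in the library labelled duplication H3.3K27M and 34.3 in duplication. On the 5 autosomes together the means were −23.1 and −6.68 in the same order of strains. X minus autosomes was therefore 144.6 in the library labelled duplication H3.3K27M and 41.0 in duplication, a difference of 103.6. With left X alone, which has no extra input in either library, it was 145.1 and 37.2, a difference of 107.9. With right X alone it was 143.4 and 49.3, a difference of 94.1. The difference between X and the autosomes did not rest on the part of X with extra input. In a bulk preparation, a change in every nucleus and a change in a share of the nuclei cannot be told apart.

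The share of recovered reads gave the same picture without input subtraction. X held 37.6% of the IP reads of the library labelled duplication H3.3K27M and 24.2% of those of duplication, while it took 17.2% and 18.6% of their input reads and makes up 17.7% of the bins. Left X held 25.7% of IP reads in the library labelled duplication H3.3K27M and 14.4% in duplication. Chromosome I held 7.28% and 11.9%, chromosome III held 5.87% and 10.6%, and chromosome V held 26.8% and 22.3%, in the same order of strains. In IP reads per bin, the median of left X was 4.80 times that of the autosomes in the library labelled duplication H3.3K27M and 1.24 times in duplication.

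By chromosome, the strains were ordered in different ways. On left X the median log2 level over 10 kb bins was 1.19 in the library labelled duplication H3.3K27M (quartiles 1.11 and 1.25) and 0.43 in duplication (quartiles 0.26 and 0.60). On right X it was 1.15 (quartiles 1.07 and 1.21) and 0.42 (quartiles 0.26 and 0.56). On both parts of X the quartile ranges of the strains did not overlap.

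On chromosome I the median level was −1.41 in the library labelled duplication H3.3K27M and −0.27 in duplication, and on III it was −1.41 and −0.31. These 2 chromosomes also had the lowest levels of duplication. On II it was −0.99 in the library labelled duplication H3.3K27M and 0.15 in duplication, and on IV it was −1.04 and 0.27. On II and IV the median bin thus had more IP than input in duplication and less in the library labelled duplication H3.3K27M. Chromosome V stood apart from the other autosomes, with a median of 0.49 in the library labelled duplication H3.3K27M and 0.35 in duplication. The quartiles on V lay at −0.63 and 0.96 in the library labelled duplication H3.3K27M, against −0.01 and 0.56 in duplication, so the bins of V were spread more widely in the K27M strain.

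**Figure D1:**
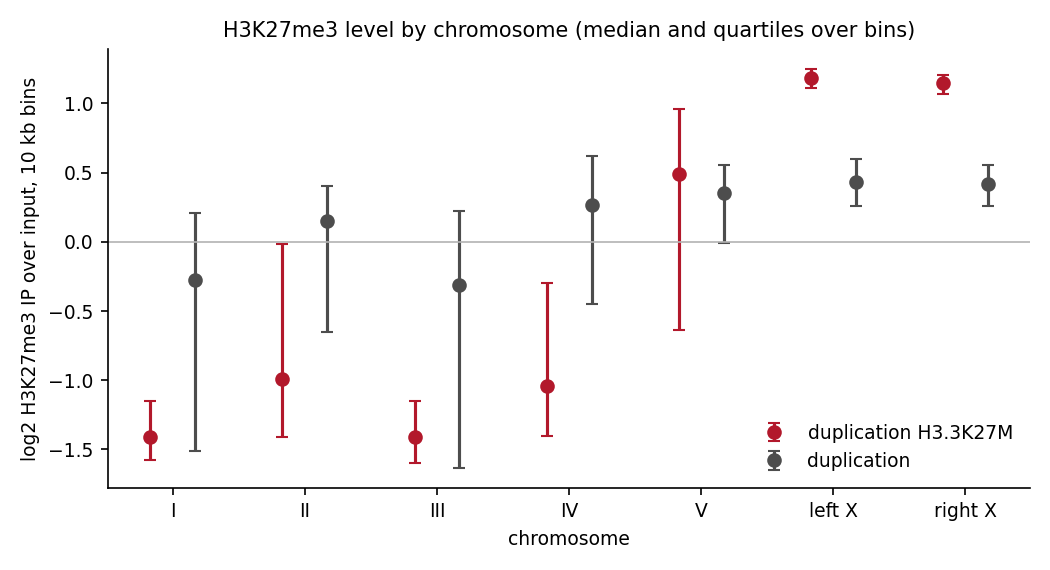
Median log2 ratio of H3K27me3 IP to input over 10 kb bins of each chromosome, with bars for the quartiles over bins, for the libraries labelled duplication H3.3K27M (left, red) and duplication (right, grey). Medians of I to IV lie between −1.41 and −0.99 in the library labelled duplication H3.3K27M and between −0.31 and 0.27 in duplication, whereas both parts of X lie at 1.19 and 1.15 against 0.43 and 0.42.

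The spread of levels in strains without K27M gives a measure for these differences. The medians of duplication, wild type and H3-like had SDs of 0.06 to 0.11 over the 3 strains for each chromosome or part of X. The median log2 change between the library labelled duplication H3.3K27M and duplication was 0.74 on left X and 0.73 on right X, or 1.67-fold and 1.66-fold. On the autosomes the medians were −0.67 for I, −0.52 for II, −0.86 for III, −0.92 for IV and 0.16 for V. In size each of these medians was larger than the SD over the strains without K27M, and V was the closest to it (SD 0.08). The mean change over bins of V, 0.052, was below it. That SD is of levels of single libraries, duplication among them, whereas a change is a difference between libraries, which can vary more. On V these levels were 0.35 in duplication, 0.47 in wild type and 0.32 in H3-like. The signs, on X as on the autosomes, rest on the scaling of the tracks, which hides a loss or gain over the whole genome. Taking the genome-wide median of each track as its 0 adds 0.95 to every change, and the medians were then 0.28 for I, 0.44 for II, 0.092 for III, 0.036 for IV, 1.12 for V, 1.70 for left X and 1.68 for right X. With a common input, the mean of both inputs, for both strains, they were −0.77 for I, −0.59 for II, −0.93 for III, −0.74 for IV, 0.26 for V, 0.81 for left X and 0.25 for right X. Left X was highest in each case, whereas the lowest was IV with each strain's own input and III with the common input.

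Counts of bins past 2-fold described the same split. Of 10030 bins, 247 (2.46%) were more than 2-fold higher and 2605 (26.0%) more than 2-fold lower in the library labelled duplication H3.3K27M than in duplication. Of the bins past 2-fold higher, 158 lay on left X, 65 on right X and 24 on the autosomes, 17 of them on V. Left X had 13.0% of its bins past 2-fold higher and right X 11.6%. Of the bins past 2-fold lower, 2601 lay on the autosomes, and they made up 40.3% of I, 30.5% of II, 43.8% of III, 46.3% of IV and 5.45% of V. Without right X the counts were 182 higher and 2604 lower. Centring on that median turned the counts to 4580 higher and 124 lower. With the common input, 43 bins were past 2-fold higher and 2506 lower.

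With the tracks as scaled, chromosome X was higher in the library labelled duplication H3.3K27M in every window along its length. The 18 windows of up to 1 Mb along X had median changes between 0.67 and 0.82. In the library labelled duplication H3.3K27M, the window medians of the level lay between 1.07 and 1.22, against 0.27 and 0.57 in duplication. Of 1213 bins of left X, 1197 were higher in the library labelled duplication H3.3K27M, as were 557 of 559 bins of right X. At the finer scale, 97.1% of the 100 bp bins of left X had a value above 0 in the library labelled duplication H3.3K27M, against 78.0% in duplication.

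The right part of X is where the inputs differed. There the median scaled IP was 221.2 reads per 100 bp in the library labelled duplication H3.3K27M and 183.7 in duplication, and the median scaled input was 99.1 and 138.0. On left X the scaled IP was 224.3 and 127.5, and the scaled input was 98.4 and 93.7, in the same order of strains. Within duplication, IP and input both stepped up at the split, by 1.45 times for IP reads and 1.46 times for input reads, so that the median log2 level was 0.42 on right X and 0.43 on left X. In input-subtracted reads the change on right X was smaller than on left X by 13.8 (right minus left X was −1.73 in the library labelled duplication H3.3K27M and 12.1 in duplication), while on the log2 scale right minus left X was 0.0096 for the mean change and −0.012 for the median change. Dividing by a common input gave a median change of 0.25 on right X and 0.81 on left X. The value on right X thus depended on whether each strain's own input was used.

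**Figure D2:**
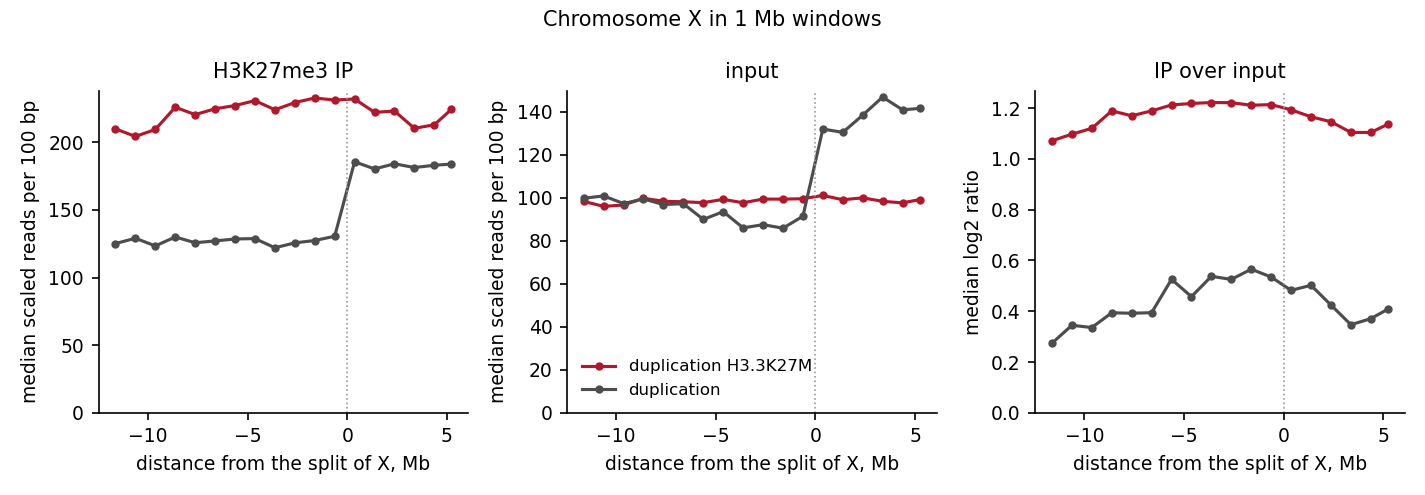
Scaled H3K27me3 IP reads (left panel), scaled input reads (middle panel) and log2 IP over input (right panel), as medians of 10 kb bins in 1 Mb windows along X, against the distance from the split at 0; the window at the split holds bins of both parts. The input of the library labelled duplication H3.3K27M (red) is flat, with medians of 98.4 and 99.1 left and right of the split, whereas that of duplication (grey) has medians of 93.7 and 138.0.

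Within X, the change in this pair was larger where the wild type had less of the mark. Bins of X were sorted by the H3K27me3 level of the wild type, a library outside this comparison, and cut into 5 groups of equal size. From the lowest to the highest group, the median change was 0.95, 0.77, 0.70, 0.65 and 0.64. Between H3-like K27M and H3-like the same groups gave 1.04, 1.01, 1.03, 1.05 and 1.08, without that order. Changes of these groups with a common input were not computed. The level in the library labelled duplication H3.3K27M varied less over these groups (1.06 to 1.24) than that in duplication (0.10 to 0.59). In duplication, 125 bins of X, 7.05% of them, had no more IP than input, with a median level of −0.11. Of these 125 bins, 111 were above 0 in the library labelled duplication H3.3K27M, where their median was 1.01. Because low values in duplication chose these bins, their change in this pair is a description only. Between H3.3K27M and wild type their median change was 0.91, against 0.76 in the 1647 X bins above 0 in duplication. Between H3-like K27M and H3-like it was 1.03, against 1.04, so there these bins rose no more than the rest of X.

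The 3 largest rises on left X were in the bins from 9810001 to 9820000, 3120001 to 3130000 and 9190001 to 9200000. In the bin at 9810001 the level was 1.10 in the library labelled duplication H3.3K27M and −0.51 in duplication, a change of 1.62. In the bin at 3120001 it was 1.01 and −0.55, a change of 1.56. In the bin at 9190001 it was 1.28 and −0.18, a change of 1.46. All 3 were bins in which the input of duplication was high, with 80.8 to 84.8 input reads per 100 bp against 44.0 to 50.7 in the library labelled duplication H3.3K27M. With a common input their changes were 1.03, 1.01 and 0.77, still above the median of left X in 2 of the 3.

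On right X the largest rises were in the bins from 16830001 to 16840000 (change 1.43), 15270001 to 15280000 (1.36) and 13520001 to 13530000 (1.35). Their levels were 1.27, 0.90 and 1.07 in the library labelled duplication H3.3K27M and −0.16, −0.46 and −0.28 in duplication. With a common input these changes were 0.31, 0.40 and 0.49. Runs of neighbouring bins past 2-fold higher were short: 171 of 205 runs were a single bin, and the longest, from 3090001 to 3130000 and from 3790001 to 3830000 of X, were 40 kb. Positions are on WBcel215, to which the reads had been mapped, and the bins were not assigned to genes here.

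On the autosomes the changes followed position along the chromosome. Each chromosome was cut into 3 equal parts, left, middle and right. On I the median change was −0.68, −1.28 and −0.28 from left to right, and the middle part had 60.2% of its bins past 2-fold lower. On III it was −0.63, −1.18 and −0.73, with 58.5% of the middle part past 2-fold lower. On II it was 0.12, −0.90 and −0.62, and on IV −0.80, −1.03 and −0.89. The middle part thus had the lowest median on each of these 4 chromosomes. On V it was 0.24, 0.00 and 0.33, with the middle part lowest as well. Between H3-like K27M and H3-like the middle part was lowest on every autosome. Between H3.3K27M and wild type it was lowest on I, III and V alone. There II had 0.0025, −0.85 and −0.89, and IV had −1.04, −0.94 and −0.70. In C. elegans the autosome centres are the regions richer in conserved genes, and the arms are richer in repeats. The scaled input of duplication also varied along the autosomes. On I its median was 126.1 from 1 to 1000000 and 94.2 from 6000001 to 7000000. In the library labelled duplication H3.3K27M these were 101.3 and 106.9. Values of the 3 parts with a common input were not computed.

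In windows of 1 Mb, the medians below −1.2 lay in the centres of I, III and IV. They reached −1.32 in the window from 8000001 to 9000000 of I, −1.27 in that from 6000001 to 7000000 of III and −1.30 in that from 8000001 to 9000000 of IV. Of 84 windows on the autosomes with at least 20 bins, 66 had a median change below 0 and 18 above 0. All windows of III and IV were below 0, as deposited. Of the windows above 0, 13 were on V, 3 on II and 2 on I. Those on II covered the stretch from 1000001 to 4000000, where the level was 0.40 to 0.64 in the library labelled duplication H3.3K27M and 0.16 to 0.23 in duplication. Next to it, from 4000001 to 5000000, the level was −0.81 in the library labelled duplication H3.3K27M and 0.20 in duplication.

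**Figure D3:**
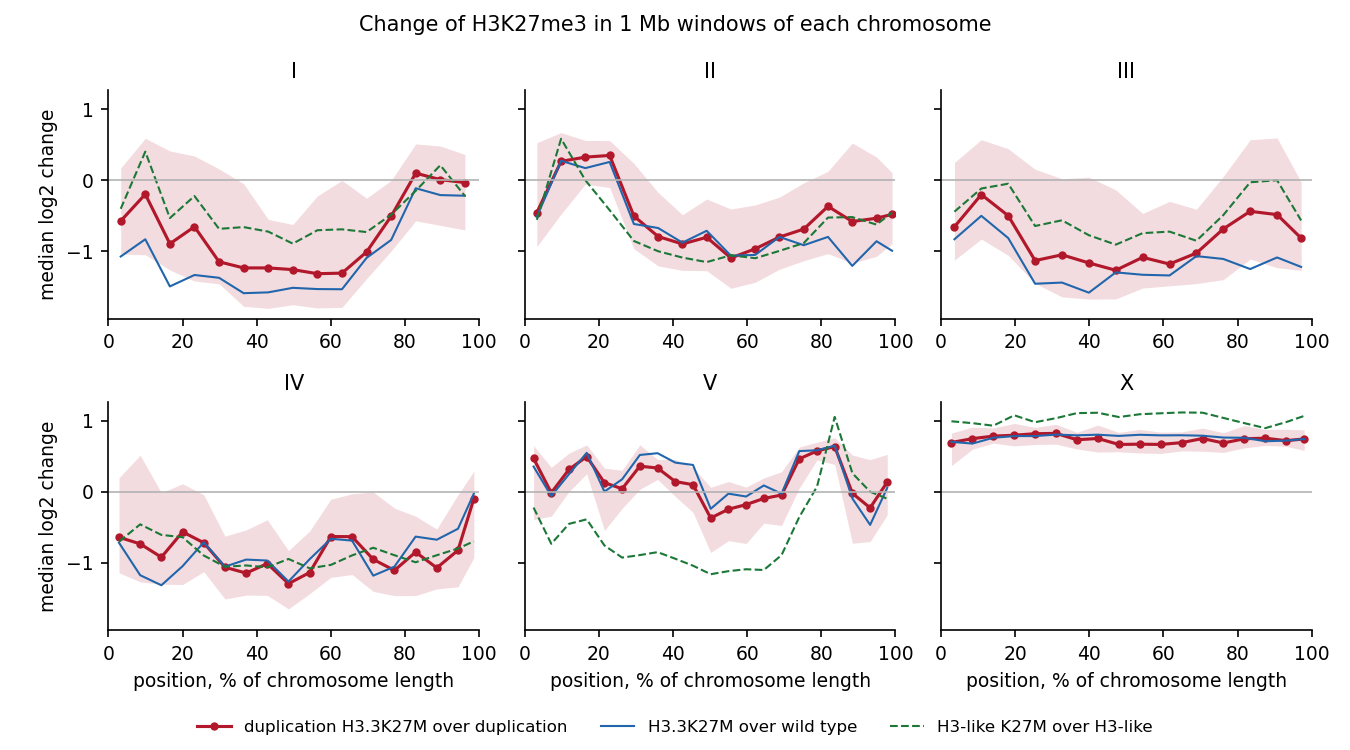
Median log2 change of H3K27me3 in 1 Mb windows against position as a percentage of chromosome length, for duplication H3.3K27M over duplication (red, shading for the quartiles over 10 kb bins) and for the other pairs. X lies between 0.67 and 0.82 throughout in the duplication pair, and the lowest windows lie near the centres of I, III and IV (−1.32, −1.27 and −1.30).

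The 3 largest falls of single bins were on I and IV. In the bin from 9210001 to 9220000 of I the level was −1.50 in the library labelled duplication H3.3K27M and 0.85 in duplication, a change of −2.35. In the bin from 6860001 to 6870000 of I it was −1.37 and 0.93, a change of −2.30. In the bin from 14810001 to 14820000 of IV it was −1.02 and 1.26, a change of −2.28. Scaled IP reads in these bins were 33.9, 36.4 and 40.3 in the library labelled duplication H3.3K27M and 109.1, 115.0 and 99.9 in duplication. Their input reads per 100 bp were 40.5, 39.8 and 34.3 in the library labelled duplication H3.3K27M and 28.3, 28.2 and 19.4 in duplication. With a common input the changes were −1.66, −1.63 and −1.29. The same bins changed by −2.10, −2.03 and −1.64 between H3.3K27M and wild type.

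Lower bins formed longer runs than higher ones, but they were also more numerous (2605 against 247), and runs lengthen as more bins are called. With centring the counts were 124 lower and 4580 higher, and runs were not computed for these. Of 1057 runs past 2-fold lower, 445 were a single bin. The longest runs were 130 kb, from 4970001 to 5100000 and from 6610001 to 6740000 of I and from 6210001 to 6340000 of III. In the first of these the median level was −1.44 in the library labelled duplication H3.3K27M and 0.29 in duplication. In the second it was −1.40 and 0.42. In the run on III it was −1.41 and 0.31. All 3 were stretches with more IP than input in duplication and less in the library labelled duplication H3.3K27M.

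The largest rises on the autosomes were all on V, in the bins from 6880001 to 6890000, 19270001 to 19280000 and 20300001 to 20310000. The levels were 0.78, 1.15 and 0.93 in the library labelled duplication H3.3K27M and −0.59, −0.20 and −0.39 in duplication, and the changes were 1.37, 1.36 and 1.32. Duplication had 93.4 to 104.8 input reads per 100 bp in these bins, against 47.4 to 55.7 in the library labelled duplication H3.3K27M, and with a common input the changes were 0.78, 0.63 and 0.51. V as a whole held regions of both kinds. Its window from 17000001 to 18000000 had a median change of 0.63, and that from 10000001 to 11000000 had −0.37. In the first the level was 1.02 in the library labelled duplication H3.3K27M and 0.34 in duplication, and in the second it was −0.11 and 0.42.

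Bins were classed by the sign of their level, a bin with more IP than input being called marked. That sign rests on the scaling of the tracks. The genome-wide median level was −0.73 in the library labelled duplication H3.3K27M and 0.22 in duplication. Classes after centring were not computed, so a bin not marked is not shown to have lost the mark. Of 8258 autosomal bins, 2069 (25.1%) were marked in both strains, 2624 (31.8%) in duplication alone, 79 (0.957%) in the library labelled duplication H3.3K27M alone and 3486 (42.2%) in neither. Bins marked in duplication alone made up 47.7% of IV, 36.4% of III, 35.0% of II, 31.4% of I and 13.3% of V. Bins marked in both made up 60.3% of V, 23.9% of II, 17.1% of IV, 6.56% of I and 3.19% of III. V held 1262 of the 2069 autosomal bins marked in both. On left X, 92.7% of bins were marked in both and 5.61% in the library labelled duplication H3.3K27M alone, and on right X these shares were 92.3% and 7.69%.

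These classes differed in libraries that had no part in defining them. H3.3K27M OLLAS, a strain whose mutant HIS-72 carries an OLLAS epitope tag (allele uge79), shows where the oncohistone itself lies. Its median log2 level was −0.63 in autosomal bins marked in both, −0.08 in bins marked in duplication alone and 0.18 in bins marked in neither. Tagged H3.3 without K27M (allele uge69) had −0.66, −0.20 and 0.22 in the same classes. Wild-type H3K36me3 had −0.09, −0.24 and 0.23. Wild-type H3K27me3 was nearly the same in bins marked in both (0.40) and in those marked in duplication alone (0.31), while the level in the library labelled duplication H3.3K27M was 0.78 in bins marked in both and −0.97 in those marked in duplication alone. By their medians, the autosomal bins marked in both had less tagged H3.3K27M than those marked in duplication alone. V held 1262 of the 2069 autosomal bins marked in both. It also had the lowest median of tagged H3.3K27M among the autosomes (−0.41, against −0.14 on IV, the next lowest, and 0.15 on III, the highest). No comparison within a chromosome was made.

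The relation to the oncohistone was then followed over the whole range of OLLAS levels. Autosomal bins were sorted by H3.3K27M OLLAS into 5 groups of equal size. From the lowest to the highest group, the median change was 0.16, −0.51, −0.64, −0.64 and −0.60. The step was thus between the lowest group and the rest, and the highest group minus the lowest was −0.75. In the bins with wild-type H3K27me3 above 0, the 5 medians were 0.34, −0.17, −0.75, −1.06 and −1.16, each below the one before. There the level in the library labelled duplication H3.3K27M was 0.94 in the lowest group and −1.004 in the highest, against 0.56 and 0.17 in duplication. On X the order was the opposite and the range narrow, with 0.66, 0.66, 0.72, 0.77 and 0.87. Sorted by H3.3 OLLAS without K27M, the marked autosomal bins gave 0.26, −0.26, −0.68, −1.01 and −1.08. Over all autosomal bins that sorting gave 0.04, −0.76, −0.74, −0.51 and −0.26, and the highest group minus the lowest was −0.30. None of the changes by OLLAS group was computed with a common input.

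**Figure D4:**
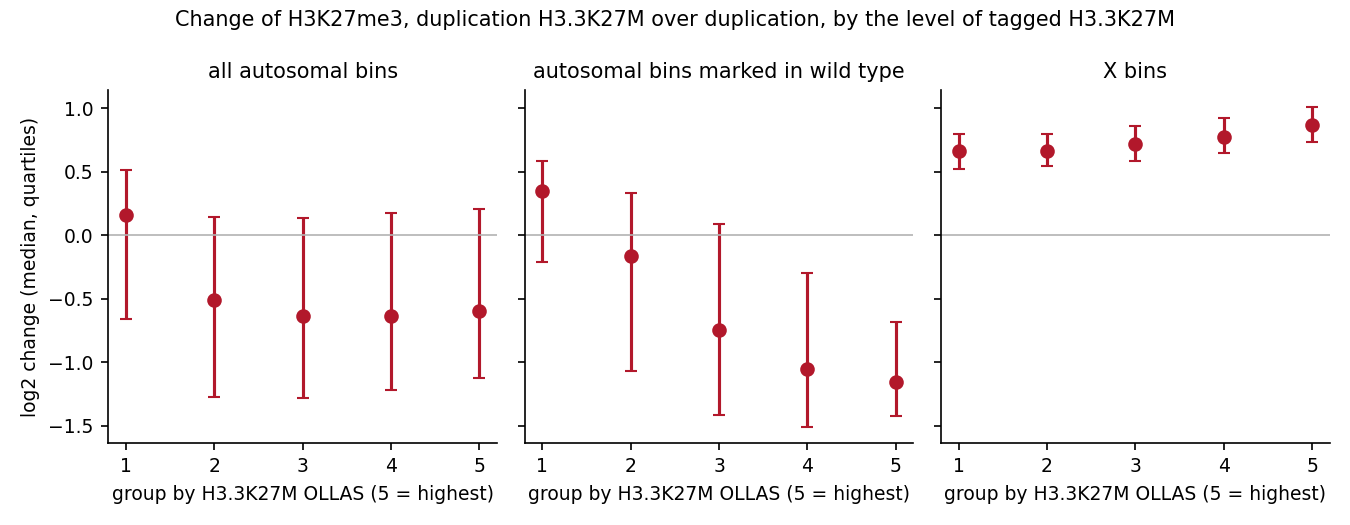
Median log2 change of H3K27me3, duplication H3.3K27M over duplication, in 5 groups of 10 kb bins sorted by tagged H3.3K27M (group 5 highest), with bars for the quartiles over bins, for all autosomal bins, autosomal bins with wild-type H3K27me3 above 0 and X bins. Medians of the marked autosomal bins are 0.34 in the lowest group and −1.16 in the highest, and those of X are 0.66 and 0.87.

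Sorting by the H3K27me3 level of the wild type gave a curve with its lowest point in the middle. From the lowest to the highest of 5 groups of autosomal bins, the median change was 0.36, −0.83, −1.20, −0.78 and 0.13. In the lowest group, bins poor in the mark, the level was −1.57 in the library labelled duplication H3.3K27M and −1.87 in duplication. In the middle group it was −1.06 and 0.21, and in the highest it was 0.66 and 0.49. The direction in the highest group rested on the library used for sorting: by H3-like H3K27me3 its level was 0.48 in the library labelled duplication H3.3K27M and 0.63 in duplication, a median change of −0.17. With either sorting the lowest change was in the middle group. Sorted by wild-type H3K36me3, the change went the other way, with −1.02 in the lowest group and 0.29 in the highest. In that highest group the level was −1.40 in the library labelled duplication H3.3K27M and −1.22 in duplication. For these sortings, too, changes with a common input were not computed.

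The pair was last set beside the other pairs with and without K27M, which share no library with it. Across 10030 bins of 10 kb, the change in this pair had a Pearson r of 0.94 with the change between H3.3K27M and wild type and 0.79 with that between H3-like K27M and H3-like. On the autosomes alone the values were 0.92 and 0.71. On X, where the changes vary little, they were 0.61 and 0.45. On the input-subtracted signal of all bins the order of the pairs depended on the measure. Pearson r was 0.61 and 0.82 there, and the rank (Spearman) correlation was 0.94 and 0.76. On left X, the median change was 0.74 in this pair, 0.78 between H3.3K27M and wild type and 1.05 between H3-like K27M and H3-like. On right X it was 0.73, 0.75 and 1.01 in the same order.

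Among the autosomes, the lowest r with the H3-like pair was on V, at 0.49 against 0.89 with the H3.3K27M pair. The median change on V was 0.16 in this pair, 0.26 between H3.3K27M and wild type and −0.63 between H3-like K27M and H3-like. Of 13 windows of V above 0 in this pair, 11 were below 0 in the H3-like pair and none in the H3.3K27M pair, with the tracks as deposited. Centred on the genome-wide medians, the median change on V was 1.12 in this pair, 1.33 in the H3.3K27M pair and 0.32 in the H3-like pair, and 1 of the 13 windows was below 0 in the H3-like pair. On I, the change was −0.67 in this pair, −1.08 in the H3.3K27M pair and −0.42 in the H3-like pair, so the pairs also differed in size where they shared a direction. Bins past 2-fold lower made up 26.0% of the genome in this pair, 31.3% in the H3.3K27M pair and 23.5% in the H3-like pair, and bins past 2-fold higher 2.46%, 0.568% and 18.8%. Whether the pairs differed beyond the error of a library was not tested.

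**Figure D5:**
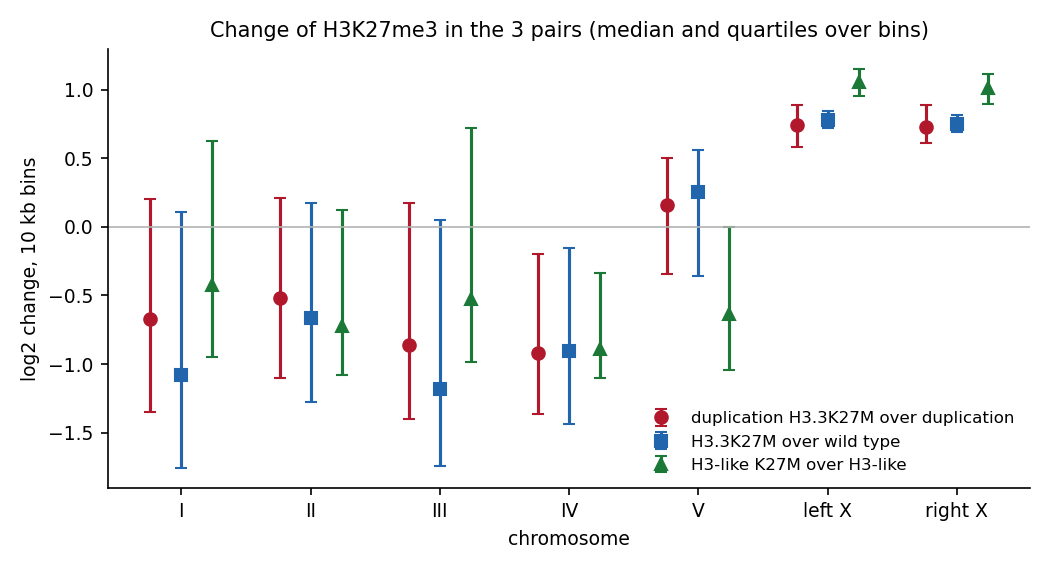
Median log2 change of H3K27me3 over 10 kb bins of each chromosome, with bars for the quartiles over bins, in duplication H3.3K27M over duplication (red circles), H3.3K27M over wild type (blue squares) and H3-like K27M over H3-like (green triangles). On V the medians are 0.16, 0.26 and −0.63, and on left X they are 0.74, 0.78 and 1.05.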

How the data were processed

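Chromatin of young adult worms was fragmented with MNase, and H3K27me2/me3 was precipitated without crosslinking. Per the study's methods, the authors mapped paired-end reads to WBcel215 with Novoalign at default settings (version not given in the sources used here), gave each bin the highest read number found in it, brought the files to an equal number of reads and merged those replicates that had passed their quality control. How many replicates a track holds is not stated. Of 27 deposited tracks, 11 were used and 16 not, including 4 that matched no described library. The main tracks were deposited as scaled IP minus scaled input in 100 bp bins, a signed difference that is neither a count nor a ratio. The tagged histone, H3K36me3 and sorting H3K27me3 tracks hold log2 IP over input made by the authors, in 1 kb or 10 kb bins. The final tracks are described as smoothed, to an extent not stated. In the 100 bp tracks of this pair, 99.99% of bins solved as whole IP and input reads, as unsmoothed values would. The log2 tracks were not examined for this.

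The worth of 1 IP and of 1 input read was taken from bins beside empty bins. Whole reads were solved with a tolerance of 2e-08 of an IP read and an input of at most 1500 scaled reads. This step was tested on simulated data. Solved reads are not library totals, since a fragment can fall in several bins, so no count test was run. Levels are log2 of scaled IP over scaled input with 1 scaled read added, in 10 kb bins. X was split where the inputs of the strains differed most. Named bins were the 3 largest rises and falls on the autosomes and the 3 largest rises on each part of X. The 3 longest runs past 2-fold in each direction were to be named as well. Among runs past 2-fold higher, those of 30 kb tied for the next place after 40 kb and were not named. All were taken among the 9938 of 10030 bins with at least 10 input reads per 100 bp in both strains. Bins of X that fell were to be named if 5 or fewer, and 13 fell. The members, lists and alternatives were chosen with earlier results of these data known. Intervals over reads were not computed, as reads of neighbouring bins are not independent. Python 3.11.15, numpy 2.4.6, pandas 2.3.3 and scipy 1.17.1 were used.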

Additional observations from a re-analysis of the deposited data

Results flagged for a closer look

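The median log2 change on V was 0.16 between the library labelled duplication H3.3K27M and duplication and −0.63 between H3-like K27M and H3-like. It was singled out because the same contrast, with and without K27M, went in opposite directions in these strain backgrounds with the tracks as deposited. Centred on the genome-wide medians, both were above 0, at 1.12 in the duplication pair and 0.32 in the H3-like pair. With 1 library per group the difference was not tested.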

How the results depend on the processing

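No paired analysis was possible because each group held 1 library, and for the same reason no replicate could be left out. Of 114 alternative values for the main results, 66 kept their direction and moved by less than a margin (the SD over strains without K27M where there is one), 38 moved further and 10 turned round; of 60 for the named bins, 36 held, 24 moved and 0 turned round. X minus autosomes differed by 103.6 between the strains, by 129.3 with medians over 100 bp bins and by 94.1 with a common input; for left X these were 107.9, 133.9 and 112.3. Right minus left X was −13.8, −57.7 with a common input, and turned round to 0.0096 for the mean log2 change, although the median log2 change kept its direction (−0.012). Centred on the genome-wide median, the median changes turned round to 0.28 for I, 0.44 for II, 0.092 for III and 0.036 for IV, and moved to 1.12 for V, 1.70 for left X and 1.68 for right X. Centred on the autosomal median they were 0.53 for I, 0.69 for II, 0.34 for III, 0.28 for IV, 1.36 for V, 1.94 for left X and 1.93 for right X, so the sign on 4 of the 5 autosomes turned round there as well. In 1 kb bins I had −0.55 and III −0.74. As means over bins III had −0.66, IV −0.77 and V 0.052. With a common input I had −0.77, III −0.93, IV −0.74, V 0.26, left X 0.81 and right X 0.25. Bins past 2-fold higher numbered 247, or 43 with a common input and 4580 with centring, and those lower 2605, or 124 with centring. With the 95th percentile of the absolute difference between H3-like and wild type as threshold (0.50) in place of 2-fold, they numbered 2746 and 3999. With that between duplication and wild type without right X (0.73), an alternative chosen after seeing the data, they numbered 1270 and 3390. In 1 kb bins 7.08% were past 2-fold higher. The share of autosomal bins marked in duplication alone was 31.8%, 12.6% with marked set above 0.5, 33.7% in 1 kb bins and 35.95% from wild type in place of duplication; marked in both was 25.1%, 8.32% above 0.5 and 23.1% in 1 kb bins. Over 5 groups of autosomal bins, the change in the highest minus that in the lowest was −0.75 sorted by H3.3K27M OLLAS, −0.30 sorted by H3.3 OLLAS and −0.52 in 1 kb bins. For wild-type H3K27me3 it was −0.23, −0.52 sorted by H3-like H3K27me3 and −0.82 in 1 kb bins, and turned round to 6.30 scaled reads on the input-subtracted signal. The Pearson correlation with the H3.3K27M pair was 0.94, or 0.61 on the input-subtracted signal, where the rank (Spearman) correlation was 0.94. With the H3-like pair the input-subtracted values were 0.82 and 0.76. The cause of these shifts was not tested. Thinning both strains to equal depth and adding 5 scaled reads in place of 1 moved none of the main results they were applied to beyond that margin.

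Median IP depth was 35 reads per 100 bp in the library labelled duplication H3.3K27M and 85 in duplication. Since the authors brought every track to an equal read number, a loss or gain over the whole genome would not show.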
